A study of Mus musculus with 2 samples.

Results

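Neutrophils that carried transcripts of interferon-induced genes were taken from single-cell RNA profiles of immune cells of the inflamed mouse colon. A cell was gated as a neutrophil at 10 or more unique molecular identifiers (UMIs, each 1 captured transcript) of S100a8 and S100a9 together and 1 or more of Csf3r. It had no UMI of Cd79a or Cd3e, at most 1 of Ms4a6c, F13a1, Vcan and C1qa together, and fewer than 5 of the granule genes Ngp, Camp, Ltf, Mmp8 and Cd177. A gated neutrophil entered the interferon group when Ifit1, Ifit3, Rsad2 and Cxcl10 together reached 5 UMIs. The group held 658 of 14080 cells, 52 of them in the library labelled WT and 606 in the library labelled CKO. The other gated neutrophils, under that threshold, numbered 74 and 541.

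Both libraries came from C57BL/6 mice in which inflammation of the colon had been induced, as infiltrating immune cells, and there was 1 library per label. The series title names loss of RPA1, a subunit of the single-stranded DNA binding complex, in T cells, but the labels give neither the deleted allele nor what drives the deletion. Nor do they state the age of the mice, the agent of the colitis or how many mice went into a library. A single library per label allows neither a replicate check nor a test, and the label cannot be told apart from the mice or the library. Ranges in brackets are 95% intervals of the counting error alone. A log2 ratio compares counts per 1000000 UMIs (CPM) of summed cells, and a gene was called higher or lower at 1.5-fold. In gated neutrophils Rpa1 had 0 UMIs with the WT label and 5 with the CKO label. In cells gated on Cd3e its level was 43.6 CPM (34.0 to 55.1) in the library labelled WT and 68.6 CPM (56.8 to 82.2) in the library labelled CKO. That order goes against the label, but a 3′ tag outside a deleted part checks nothing, so the labels are used here only as names.

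Interferons of type I and type III bind cell-surface receptors and signal through JAK kinases to a complex that holds IRF9 and binds an element called the ISRE in the promoters of antiviral genes. Interferon-gamma has its own receptor, and its signal acts through a different element, called GAS. Neutrophils are short-lived phagocytes made in the bone marrow, and an interferon-induced state is a recurrent one among neutrophils of blood and inflamed tissue. Ifit1 and Ifit3 encode tetratricopeptide proteins that bind viral RNA, Rsad2 encodes viperin, which makes a chain-terminating nucleotide, and Cxcl10 encodes a chemokine that attracts CXCR3-bearing lymphocytes.

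The 4 interferon genes of the rule all had an ISRE core in the 250 bases before their start, and the stretch of 60 bases around the match nearest to the start is shown for each. The letters searched were GAAANNGAAA on both strands, and GAS was searched as TTCNNNGAA, which reads the same on both strands. Sequences are from RefSeq on GRCm38.p6 and run 5′ to 3′ on the strand of the gene, with the match in capitals.
Ifit1, chr19:34640779-34640838, plus strand: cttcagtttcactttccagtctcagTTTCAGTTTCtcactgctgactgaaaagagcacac
Ifit3, chr19:34583382-34583441, plus strand: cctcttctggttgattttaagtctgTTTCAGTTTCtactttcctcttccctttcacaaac
Rsad2, chr12:26456538-26456597, minus strand: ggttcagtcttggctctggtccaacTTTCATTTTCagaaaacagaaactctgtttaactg
Cxcl10, chr5:92349068-92349127, minus strand: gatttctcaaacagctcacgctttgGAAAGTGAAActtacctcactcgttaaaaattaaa
Of the genes outside the rule, 4 with a match are shown in the same way, chosen to show the letters in genes of different roles. Isg15 encodes the ubiquitin-like modifier ISG15, Gbp5 encodes a guanylate-binding protein, Socs1 encodes an inhibitor of JAK kinases, and Irf1 encodes a transcription factor whose window held the GAS letters and no ISRE core. The Gbp5 window lies inside the span that GENCODE gives the gene.
Isg15, chr4:156200850-156200909, minus strand: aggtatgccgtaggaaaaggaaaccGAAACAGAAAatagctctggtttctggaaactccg
Gbp5, chr3:142496744-142496803, plus strand: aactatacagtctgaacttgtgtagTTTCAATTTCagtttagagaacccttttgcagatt
Socs1, chr16:10785579-10785638, minus strand: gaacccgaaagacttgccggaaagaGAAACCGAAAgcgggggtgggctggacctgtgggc
Irf1, chr11:53769898-53769957, plus strand: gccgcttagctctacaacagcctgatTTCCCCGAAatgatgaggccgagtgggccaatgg
Among all 27025 genes with a window in the table, 936 (3.46%) held the ISRE core and 2197 (8.13%) held the GAS letters. Of 66 interferon-stimulated genes outside the rule with a window, 22 (33.3%) held the ISRE core and 6 (9.09%) the GAS letters. All 5 guanylate-binding protein genes with a window held the ISRE core and 2 held the GAS letters. Of 7 immunity-related GTPase genes with a window, 6 held the ISRE core and 5 the GAS letters. None of 21 neutrophil identity genes held the ISRE core, and 2 held the GAS letters. Of genes described below, Ifit2, Cmpk2, Daxx, Cxcl9, Oasl1, Irf7 and Ifi47 had no ISRE core in their windows, and of these Ifit2 alone held the GAS letters. No match says only that these letters are not in the window. A match describes letters in the window and is not a measured binding site.

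The label was checked against markers. The 27 neutrophil identity genes, which include those of the gate, summed to a median of 246.5 UMIs per cell in the group with the WT label and 414 with the CKO label, and the lowest cells held 63 and 59 UMIs. S100a8 and S100a9, subunits of calprotectin, and Csf3r, the receptor of granulocyte colony-stimulating factor, are part of the rule and so were present by construction. The 24 neutrophil identity genes outside the rule held 6173 UMIs (43936 CPM) and 100799 UMIs (56429 CPM). Among them the chemokine receptor gene Cxcr2 was read at 598 CPM (84 UMIs) and 925 CPM (1652 UMIs), and the histamine-forming enzyme gene Hdc at 4149 and 3513 CPM. Defining markers of dendritic cells (Flt3, Zbtb46, Xcr1, Clec9a) and of eosinophils (Epx, Ear1, Ear2) were at 0 in the group in both libraries. All 11 dendritic cell markers, of which 7 and 6 were at 0 in the group, summed to 157 CPM (22 UMIs) beside 81.1 in other gated neutrophils with the WT label, and to 137 CPM (244 UMIs) beside 105 with the CKO label, where 13 cells of the group held 3 or more. The 8 eosinophil markers held 1 and 26 UMIs in the group. In the library labelled CKO, 16 of 606 cells of the group held 3 or more UMIs of B, T, NK, mast, eosinophil, epithelial or stromal cell markers, and 2 of 52 did so with the WT label. Dendritic cell, monocyte and plasma cell markers are not part of that count. By the same cut, 5 of 52 and 190 of 606 cells of the group (WT and CKO labels) held monocyte and macrophage markers. In other gated neutrophils 6 of 74 and 115 of 541 cells did so. Plasma cell markers reached the cut in 51 and 565 cells of the group, and in 73 and 493 other gated neutrophils. Single cells carried most of some marker sums: 1 CKO-labelled cell held 498 of 601 epithelial marker UMIs, and 1 WT-labelled cell held 118 of 122 mast cell marker UMIs. Plasma cell markers, which include Jchain and immunoglobulin transcripts, summed to 8221 CPM in the group and 6398 CPM in other gated neutrophils with the WT label, and to 2631 and 4675 CPM with the CKO label. Monocyte and macrophage markers summed to 477 and 387 CPM with the WT label, and to 783 and 761 CPM with the CKO label. The part of these transcripts in the results was not tested. No cell of the group had a barcode that was also used in the other library.

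The rule sum showed no gap at the threshold, and whether the cells form separate classes was not tested. Among gated neutrophils 35 and 177 cells had no UMI of the 4 genes, 39 and 364 had 1 to 4, and the group reached from 5 to 158 UMIs with the WT label and from 5 to 161 with the CKO label. Medians within the group were 13.5 and 14 UMIs. The sum was uneven within the group: the top 6 of 52 and the top 61 of 606 cells held 36.0% and 34.6% of all rule UMIs of the group. Cells at 5 or 6 UMIs, just inside the threshold, numbered 13 and 105, and cells at 3 or 4, just outside it, numbered 14 and 147.

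**Figure D1:**
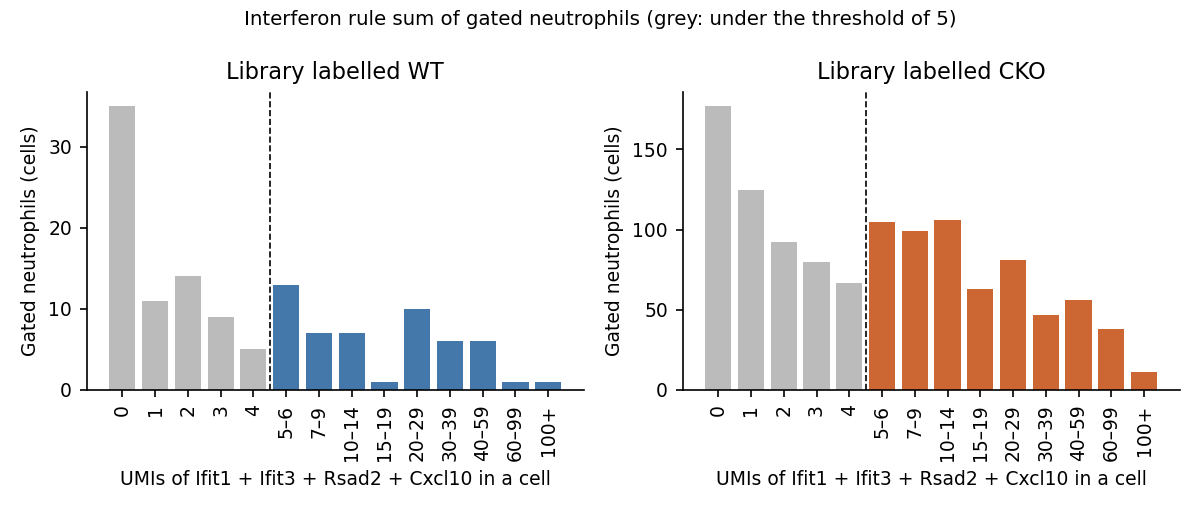
Number of gated neutrophils (vertical axis, cells) in ranges of the UMI sum of Ifit1, Ifit3, Rsad2 and Cxcl10 (horizontal axis, ranges of unequal width) in each library. Grey bars are the 74 and 541 cells under the threshold of 5 UMIs and coloured bars the 52 and 606 cells of the group, and no gap in the sum marks the threshold.

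The interferon group made up 41.3% (32.6 to 50.4) of 126 gated neutrophils with the WT label and 52.8% (49.9 to 55.8) of 1147 with the CKO label. The 2 intervals overlapped narrowly. Of all cells the group was 1.78% (1.33 to 2.32) and 5.43% (5.02 to 5.87). Sequencing depth moved with the group, since its cells held medians of 2236.5 and 2672 UMIs against 2187 and 2211 in other gated neutrophils. At a fixed depth of 1000 UMIs per cell, without 7 and 37 cells too shallow for it, 46.2% (37.0 to 55.6) and 55.9% (52.9 to 58.8) of gated neutrophils held 2 or more UMIs of the 4 genes. Without Cxcl10 the thinned shares were 40.3% (31.4 to 49.7) and 46.3% (43.3 to 49.3). Cells with 2 or more Cd79a UMIs and none of Cd3e, at median depths of 4415 and 3177 UMIs, had shares at that fixed depth of 2.01% and 2.38%. Cells with 3 or more UMIs of Ms4a6c, F13a1, Vcan and C1qa and none of Csf3r gave 27.3% (10.7 to 50.2) of 22 and 31.7% (27.7 to 36.0) of 501 cells, and without Cxcl10 9.09% and 13.6%. Cells of the T cell gate, with 1 or more Cd3e UMIs and none of Cd79a, gave 17.5% (13 to 22.8) and 9.36% (6.49 to 13), and without Cxcl10 12.4% and 5.26%.

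Neutrophils with granule protein transcripts, which stand earlier in maturation and which the rule leaves out, held the interferon genes as well. In the library labelled CKO 241 of 384 such cells, 62.8% (57.7 to 67.6), reached 5 UMIs of the 4 genes, at a median depth of 4243.5 UMIs. At the fixed depth of 1000 UMIs the share was 54.7% (49.6 to 59.7), beside 55.9% in the gated neutrophils of that library. The library labelled WT held 1 such cell, with 0 UMIs of the 4 genes, so no share could be read there.

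The genes of the rule are described with no test, since they chose the cells. Rsad2 (chr12:26442746-26456452) had 502 UMIs in the group and 36 in other gated neutrophils with the WT label, and 4870 and 406 with the CKO label. Cxcl10 (chr5:92346638-92348889) had 455 and 12 UMIs with the WT label, and 6461 and 117 with the CKO label. Ifit1 (chr19:34640871-34650009) had 152 and 19, and 1580 and 160. Ifit3 (chr19:34583531-34588731) had 82 and 19, and 1007 and 134. The members passed by different genes: 24 of 52 (46.2%) and 281 of 606 (46.4%) had 5 UMIs of Ifit1, Ifit3 and Rsad2 but fewer than 5 of Cxcl10. A further 6 (11.5%) and 85 (14%) passed through Cxcl10 alone, 16 and 207 through both, and 6 and 33 only through the sum. All 4 genes were seen together in 15 (28.8%) and 213 (35.1%) cells.

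**Figure D2:**
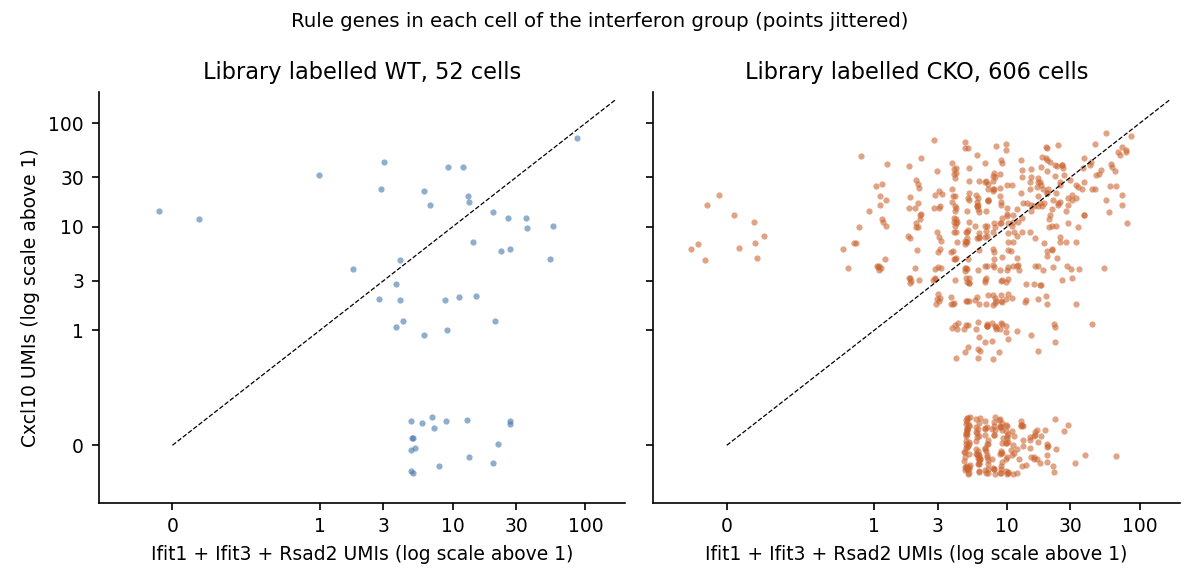
Cxcl10 UMIs (vertical axis) against the sum of Ifit1, Ifit3 and Rsad2 UMIs (horizontal axis) in each cell of the group, on axes that are logarithmic above 1 UMI, with points shifted slightly to show overlaps. The dashed line marks equal values: 13 WT-labelled and 219 CKO-labelled cells lie above it, and 18 and 178 cells have no Cxcl10 UMI.

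Interferon-stimulated genes that the rule did not use were higher in the group than in other gated neutrophils in both libraries. With the WT label 37 of the 47 read, those with 20 or more UMIs over the 2 sums, were at least 1.5-fold higher and 0 were lower, with a median log2 ratio of 1.22 that includes 1 gene at its bound. With the CKO label 59 of 73 stood higher and 0 lower (median 0.93). Over all genes read, 20.1% were higher and 16% lower with the WT label (1575 genes, median -0.01), and 10.7% higher and 12% lower with the CKO label (5281 genes, median -0.07). The members were chosen on 4 genes of the same response, so these values describe the group and do not test it. Summed, the list took 36057 CPM in the group and 22321 CPM in other gated neutrophils with the WT label, and 40053 and 28473 CPM with the CKO label. RNA quality genes, the nuclear transcripts Malat1 and Neat1 and 5 mitochondrial transcripts, differed too: 4 of 7 were higher and 0 lower with the WT label (median 0.78), and 0 of 7 passed 1.5-fold in either direction with the CKO label (median 0.27). Their sums were 37010 and 36553 CPM with the WT label and 32998 and 34860 CPM with the CKO label, and the median mitochondrial percent was 0.194 beside 0.171 and 0.287 beside 0.273. Their part in the result was not tested.

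Ifit2, a neighbour and relative of Ifit1 and Ifit3 on chromosome 19 (chr19:34550694-34576419), had 46 UMIs in the group and 0 in other gated neutrophils with the WT label, at least 17.5-fold higher against a floor of 3 UMIs over the summed cells. With the CKO label it had 782 and 85 UMIs, a log2 ratio of 2.72 (2.39 to 3.06). Cmpk2 encodes a mitochondrial nucleotide kinase and lies beside Rsad2. It had 28 and 3 UMIs with the WT label, a log2 ratio of 3.41 (1.72 to 5.77), and 250 and 30 with the CKO label, 2.57 (2.02 to 3.17). Daxx, which encodes a histone chaperone, had 23 and 1 UMIs with the WT label, 4.71 (2.09 to 10.08), and 284 and 36 with the CKO label, 2.49 (1.99 to 3.04). All 3 genes were thus higher in the group in each library, and counts of 0 to 3 leave the WT-labelled size loosely fixed.

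The members of the list named next had smaller log2 ratios with the CKO label than Ifit2, Cmpk2 and Daxx. Isg15 stood at 4840 CPM in the group and 2428 CPM in other gated neutrophils with the WT label, a log2 ratio of 1.0 (0.81 to 1.18), and at 4120 and 2221 CPM with the CKO label, 0.89 (0.83 to 0.95). Slfn5, a Schlafen family gene, stood at 1217 and 456 CPM with the WT label, 1.42 (1.01 to 1.83), and at 965 and 220 CPM with the CKO label, 2.13 (1.95 to 2.32). Usp18 encodes the protease that removes ISG15 and also damps the type I receptor. Its log2 ratios were 2.36 (0.09 to 5.61), on 9 and 2 UMIs, and 2.10 (1.54 to 2.70), on 186 and 31. Ifit3b, at 2.57 and 1.99, is a near copy of Ifit3, so reads of the 2 genes may not be fully separated and its ratio is uncertain. Several abundant interferon-inducible genes did not separate the cells: the transmembrane restriction factor gene Ifitm2 had log2 ratios of -0.19 and -0.16, Ifitm1 0.17 and -0.04, and Ifi27l2a 0.19 in both.

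Oligoadenylate synthetase genes form a family that includes sensors of double-stranded RNA that switch on RNase L. All of those read were higher: 5 of 5 with the WT label (median log2 ratio 1.04) and 7 of 7 with the CKO label (0.79). The shares over all genes were 20.1% and 10.7% higher, and 16% and 12% lower. Oasl1 had log2 ratios of 1.91 (1.02 to 2.88) and 1.88 (1.59 to 2.19). Among guanylate-binding protein genes 4 of 6 were higher and 1 lower with the WT label (median 1.84). With the CKO label 6 of 8 were higher and 0 lower (0.80). Gbp2 stood at 1836 and 468 CPM with the WT label, 1.97 (1.60 to 2.36), and at 2561 and 1276 CPM with the CKO label, 1.01 (0.92 to 1.09). Gbp5 had log2 ratios of 2.76 (1.96 to 3.65) and 1.58 (1.42 to 1.75). Gbp4 was the member with opposite directions, at -1.23 (-2.87 to 0.20) on 6 and 16 UMIs with the WT label and 0.61 (0.35 to 0.88) on 370 and 173 with the CKO label.

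Immunity-related GTPase genes, whose products attack the membranes around intracellular microbes, were higher in 2 of 2 read with the WT label and 5 of 6 with the CKO label. The shares over all genes were 20.1% and 10.7% higher, and 16% and 12% lower. Ifi47 had log2 ratios of 2.73 (1.84 to 3.75) and 1.61 (1.41 to 1.82), and Irgm1 1.59 (0.96 to 2.24) and 1.32 (1.12 to 1.51). Nucleic acid sensor and adaptor genes were higher in 3 of 7 (1 lower) and 5 of 10 (0 lower). The RNA sensor gene Ifih1 had log2 ratios of 2.34 (1.28 to 3.57) and 1.25 (0.91 to 1.61), and the Z-nucleic acid sensor gene Zbp1 1.60 (0.91 to 2.35) and 0.80 (0.65 to 0.94). Ifi211, a HIN-200 family gene, had 25 and 1 UMIs with the WT label, 4.83 (2.22 to 10.19), and 291 and 49 with the CKO label, 2.08 (1.64 to 2.55).

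Signalling genes upstream of these effectors are given next, beside shares over all genes of 20.1% higher and 16% lower with the WT label. With the CKO label these shares were 10.7% and 12%. Among receptor and JAK-STAT genes 1 of 9 was higher and 2 were lower with the WT label (median -0.17), and 1 of 11 was higher and 0 lower with the CKO label (median 0.08). These few counts are near the shares over all genes and are not read as a result about the list. Stat2 had log2 ratios of 0.60 and 0.67, and the receptor subunit gene Ifnar1 -0.17 and 0.11. Among interferon regulatory factor genes 3 of 4 were higher with the WT label (median 1.18) and 2 of 7 with the CKO label (median 0.31). Irf1 had log2 ratios of 1.18 (0.68 to 1.69) and 0.82 (0.70 to 0.94), and Irf7, the amplifier of type I interferon production, 1.46 (0.92 to 2.01) and 0.69 (0.52 to 0.85). Genes that brake interferon signalling were higher in 3 of 7 (2 lower) and 3 of 10 (0 lower). Socs1 had log2 ratios of 1.07 (0.04 to 2.17) and 1.88 (1.42 to 2.36), and Cish, another member of that family, 1.89 (0.93 to 2.96) and 1.53 (1.13 to 1.95).

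Transcripts of type I and type III interferons were not seen in these cells. All 13 type I and type III interferon genes matched had 0 UMIs in the group and in other gated neutrophils of both libraries. The floor of 3 UMIs set for a count of 0 equals 21.4 CPM per gene in the WT-labelled group and 1.68 CPM in the CKO-labelled group. Low levels could thus have gone unseen. Ifng had 16 UMIs in the WT-labelled group, 15 of them in 1 cell, and 40 in the CKO-labelled group beside 29 in other gated neutrophils.

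Of class I presentation genes 8 of 16 were higher with the WT label (median 0.59) and 4 of 20 with the CKO label (0.29), and 0 were lower in either. The shares over all genes were 20.1% and 10.7% higher, and 16% and 12% lower. Tapbp, the gene of the peptide-loading protein tapasin, had log2 ratios of 1.73 and 0.65, and B2m, the light chain of class I molecules, 0.61 and 0.22. Of genes typical of interferon-gamma 5 of 10 were higher and 1 lower with the WT label (median 0.55), and 7 of 15 were higher and 0 lower with the CKO label (median 0.24). Cd274, the gene of the checkpoint ligand PD-L1, had log2 ratios of 0.65 (0.33 to 0.97) and 0.65 (0.55 to 0.75), and the Fc receptor gene Fcgr4 1.72 (1.06 to 2.42) and 0.76 (0.58 to 0.94). Cxcl9, another CXCR3 ligand gene, had 22 and 13 UMIs with the WT label, 0.95 (-0.10 to 2.06), and 276 and 22 with the CKO label, 3.16 (2.54 to 3.86). The class II gene H2-Ab1 had log2 ratios of -1.03 and -0.51.

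**Figure D3:**
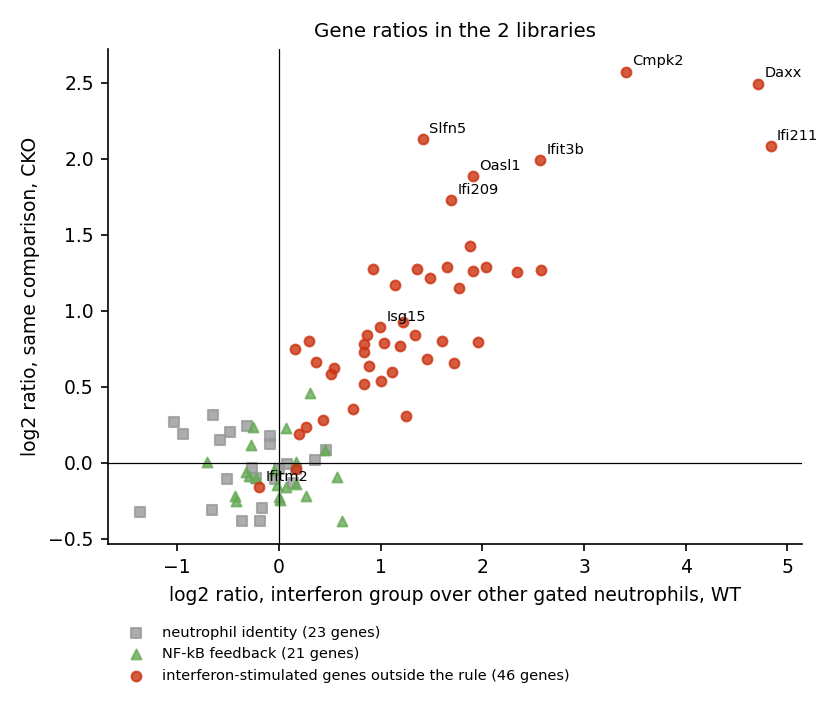
Log2 ratio of the interferon group over other gated neutrophils in the library labelled WT (horizontal axis) and in the library labelled CKO (vertical axis), 1 point per gene read in both, for 46 interferon-stimulated genes outside the rule, 23 neutrophil identity genes and 21 NF-kB feedback genes. Most interferon-stimulated genes lie to the upper right, with Ifitm2 below 0 on both axes, and the other lists lie around 0.

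Most neutrophil identity and inflammatory genes read differed by less than 1.5-fold between the group and the other gated neutrophils. Of 23 neutrophil identity genes 0 were higher and 5 were lower with the WT label (median -0.22), and none passed 1.5-fold in either direction with the CKO label (median -0.04). The shares over all genes were 20.1% and 10.7% higher, and 16% and 12% lower. Retnlg, a resistin-like neutrophil gene, had log2 ratios of -0.64 and 0.31 in the 2 libraries. NF-kB feedback genes had medians of 0.01 and -0.09, and NADPH oxidase genes -0.17 and -0.03. Of inflammatory cytokine and chemokine genes 2 of 15 were higher and 4 lower with the WT label (median -0.05). With the CKO label 3 of 25 were higher and 3 lower (median -0.14). Summed, that list had log2 ratios of -0.17 (-0.21 to -0.14) and -0.10 (-0.11 to -0.08). Il1b was read at 17637 CPM in the group and 18308 CPM in other gated neutrophils with the WT label, and at 21404 and 21876 CPM with the CKO label. Cxcl2, a neutrophil-attracting chemokine gene, had log2 ratios of -0.21 and -0.14.

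The Ccl3, Ccl4 and Csf1 programme of colitis neutrophils was not set apart from the interferon group. In the group 36 of 52 cells (69.2%, 54.9 to 81.3) and 315 of 606 (52.0%, 47.9 to 56.0) had 5 or more UMIs of these 3 genes, beside 62.2% (50.1 to 73.2) and 45.8% (41.6 to 50.1) of other gated neutrophils. These shares were taken at full depth, at which cells of the group had the higher median. In summed counts Ccl3 had log2 ratios of -0.22 and -0.18 and Ccl4 0.15 and 0.33.

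Among genes named for low ratios, Spp1, the gene of osteopontin, stood at 349 and 1086 CPM with the WT label, a log2 ratio of -1.64 (-2.13 to -1.17), and at 161 and 377 CPM with the CKO label, -1.23 (-1.44 to -1.01). Cxcl3, a neutrophil-attracting chemokine gene, stood at 1132 and 2216 CPM, -0.97 (-1.25 to -0.70), and at 891 and 1524 CPM, -0.77 (-0.87 to -0.68). The other 10 lowest ratios named by the rule were between -0.85 and -0.62 with the CKO label, among them Cited2 (-0.64), a transcriptional co-regulator gene, and Tank (-0.74), an adaptor gene of TBK1 signalling.

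Some of the 15 highest named ratios with the CKO label rested largely or in part on single cells. Lypd8 (3.91) and Reg3b (3.46), both epithelial defence genes, and Gzmb (3.11), a cytotoxic granule gene, had a top cell that held 215 of 231, 1349 of 1544 and 132 of 242 UMIs. Without cells holding 3 or more UMIs of other cells' markers, a setting chosen after the data were seen, their ratios were -0.10, -0.04 and -1.62. Gzmb is itself among the NK cell markers used, so this setting removes cells rich in it by definition. The Gzmb value there follows from the setting and tests nothing. Calhm6, a calcium homeostasis modulator family gene, had 6 and 3 UMIs with the WT label, 1.19 (-1.04 to 3.82), and 189 and 13 with the CKO label, 3.38 (2.57 to 4.31). Zup1, a deubiquitinase gene, had 10 and 4 UMIs, 1.51 (-0.28 to 3.64), and 228 and 29, 2.49 (1.93 to 3.10).

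With the CKO label the summed level of other interferon-stimulated genes was higher in each further range of the rule sum. The interferon-stimulated list took 24915 CPM in cells with a sum of 0, 30149 at 1 to 4, 33213 at 5 to 9, 38543 at 10 to 19 and 46194 CPM at 20 or more. With the WT label the same ranges gave 17300, 26730, 24544, 25482 and 48531 CPM, so that at full depth the 24 cells at 20 or more stood apart and the ranges from 1 to 19 followed no order. After thinning to 1000 UMIs per cell the list was higher in each further range in both libraries, at 16469, 25861, 27500, 32429 and 47083 CPM with the WT label and 24762, 30055, 34598, 39866 and 47296 CPM with the CKO label. The ranges stayed those of the full-depth sum, so thinning did not remove depth from them. It weighted cells alike and left out shallow cells, with 7 WT-labelled cells at 10 to 19. At the threshold itself the steps were small, and their direction turned with thinning. No interval was taken for the thinned values, so that turn is not read as a result. At full depth cells at 3 or 4 UMIs and at 5 or 6 UMIs took 28590 and 27070 CPM with the WT label, and 31920 and 30832 CPM with the CKO label. After thinning the values were 27583 and 29077 CPM with the WT label, and 32264 and 33039 CPM with the CKO label.

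Single genes differed in where along the sum they appeared, and not all were higher in each further range. With the CKO label Usp18 stood at 31.9 CPM at 0 and 20.8 CPM at 1 to 4, on 13 and 18 UMIs. Irf7 stood there at 512 CPM at 5 to 9 and 482 CPM at 10 to 19. Cxcl9 had 242 of its 276 UMIs in the CKO-labelled group in cells at 20 or more. Slfn5 was higher in each further range with the CKO label, between 118 CPM at 0 and 1446 CPM at 20 or more. Gbp2 was already at 978 CPM in CKO-labelled cells with a sum of 0 and reached 3125 CPM at 20 or more, and with the WT label it went from 280 to 2496 CPM. Il1b stayed between 20010 and 23178 CPM over all 5 ranges with the CKO label, and between 14464 and 18989 CPM with the WT label, lowest at 10 to 19.

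**Figure D4:**
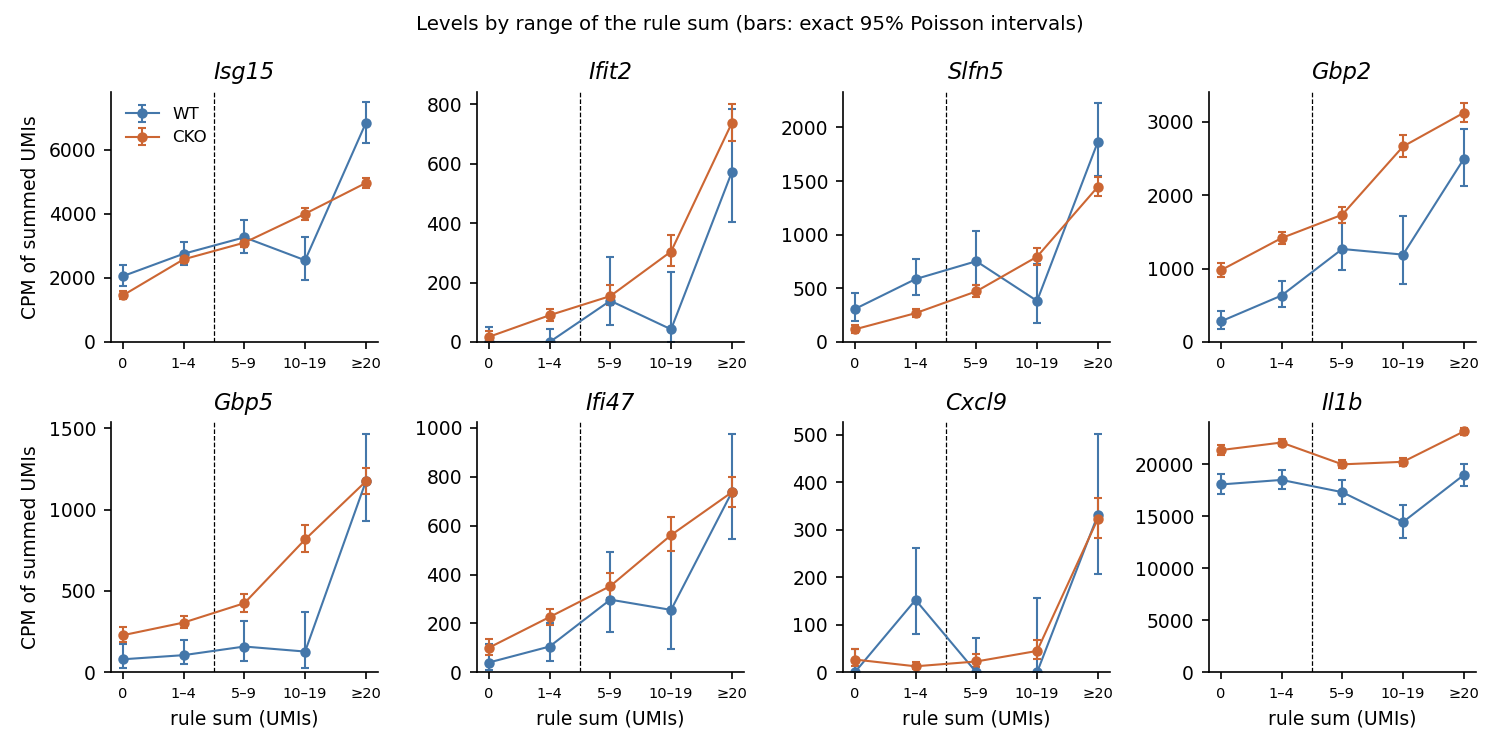
CPM of summed UMIs (vertical axes, each starting at 0) of 8 genes in 5 ranges of the rule sum (horizontal axes, UMIs per cell) in each library, with exact 95% Poisson intervals, and the threshold as a dashed line. Isg15, Ifit2, Slfn5, Gbp2, Gbp5 and Ifi47 are highest at 20 or more UMIs in both libraries, and Cxcl9 has 242 of 276 group UMIs there with the CKO label and all 22 with the WT label, beside 13 at 1 to 4. Il1b lies between 20010 and 23178 CPM with the CKO label and between 14464 and 18989 CPM with the WT label.

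Members in which Cxcl10 outnumbered Ifit1, Ifit3 and Rsad2 together were compared with the rest of the group, a split chosen after the data were seen. They numbered 13 of 52 (25%, 14 to 38.9) and 219 of 606 (36.1%, 32.3 to 40.1), with median depths of 2269 and 2619 UMIs beside 2232 and 2693 in the rest. Over all genes read 12.7% were higher and 24.4% lower with the WT label, and 6.39% higher and 15.5% lower with the CKO label. Of interferon-stimulated genes outside the rule, 4 of 38 were higher and 11 lower with the WT label, and 1 of 72 was higher and 11 were lower with the CKO label. The lower counts are near the shares over all genes and are not read as a result about the list. Against medians of -0.14 and -0.08 over all genes, the list stood at -0.29 and -0.17. RNA quality genes moved with the split in the library labelled WT, where 5 of 7 were lower in the Cxcl10-rich members (median -0.91), while 0 of 7 passed 1.5-fold either way with the CKO label (median 0.20). Their part in the split was not tested.

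Of genes typical of interferon-gamma 4 of 9 were higher and 2 lower in the Cxcl10-rich members with the WT label, and 5 of 13 were higher and 2 lower with the CKO label. Of brakes on interferon signalling 4 of 5 and 3 of 10 were higher, and 0 lower. Over all genes read 12.7% were higher and 24.4% lower with the WT label, and 6.39% and 15.5% with the CKO label. The lower counts of genes typical of interferon-gamma are near those shares and are not read as a result about the list. The genes named next were chosen after their values were seen. Cxcl9 had 21 and 1 UMIs with the WT label, and 204 and 72 with the CKO label, where its log2 ratio was 2.41 (2.01 to 2.82). Irf1 had log2 ratios of 1.57 (0.98 to 2.16) and 0.86 (0.73 to 1.0), and the adhesion molecule gene Icam1 1.54 (0.79 to 2.28) and 0.74 (0.57 to 0.92). Gbp5 had 0.88 (0.21 to 1.53) and 0.97 (0.82 to 1.12), and Socs3, an inhibitor of cytokine signalling, 0.64 (0.11 to 1.15) and 0.64 (0.47 to 0.82). Ifit2 was lower there, at -1.68 (-3.62 to -0.22) and -0.70 (-0.95 to -0.47), and so was Cmpk2, at -1.99 (-5.11 to 0.01) and -0.63 (-1.07 to -0.22). Isg15 had -0.84 (-1.16 to -0.53) and -0.33 (-0.40 to -0.25). The split was made on genes of the same response, so it is no independent support for the direction of these genes.

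Between the labels, interferon-stimulated genes were closer in the group than in other gated neutrophils. In the group 12 of 71 were at least 1.5-fold higher with the CKO label and 2 lower, with a median log2 ratio of 0.13, while over all 4175 genes read 20.9% were higher and 27.5% lower (median -0.14). In other gated neutrophils 27 of 63 stood higher and 2 lower (median 0.49), beside 22.5% higher and 19.9% lower over all 3767 genes (median 0.01). Of RNA quality genes 4 of 7 were lower with the CKO label in the group (median -0.61) and 1 of 7 in other gated neutrophils (median -0.04), and their part was not tested. Class I presentation genes gave 6 of 19 in the group (median 0.26) and 12 of 19 in other gated neutrophils (0.73), with 0 lower in both. The difference between these 2 sets of ratios was not tested, and the group is defined by a level of the response in each library. Gbp2 had log2 ratios of 0.48 (0.30 to 0.67) in the group and 1.45 (1.11 to 1.80) in other gated neutrophils, and Isg15 -0.23 (-0.35 to -0.12) and -0.13 (-0.28 to 0.03).

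**Figure D5:**
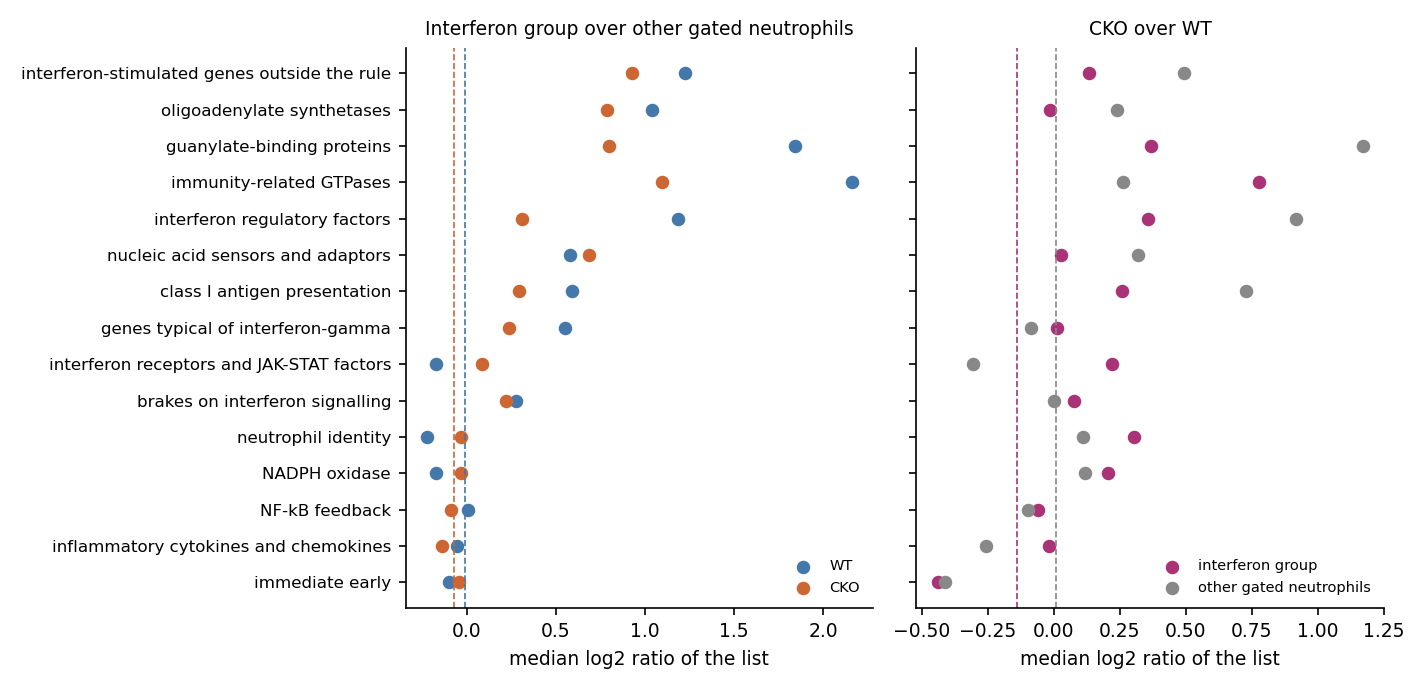
Median log2 ratio of 15 gene lists (rows), for the interferon group over other gated neutrophils in each library (left) and for the CKO label over the WT label in the group and in other gated neutrophils (right), with the median over all genes read as dashed lines. Interferon effector lists lie right of the dashed lines on the left, at 1.22 and 0.93 for the interferon-stimulated genes, and immediate early genes lie left of them on the right, at -0.44 and -0.41.

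Of the neutrophil genes named by their label ratio in the group, Retnlg stood at 1865 CPM with the WT label and 8672 CPM with the CKO label, a log2 ratio of 2.22 (2.04 to 2.40), beside 1.26 in other gated neutrophils. Ly6g, a surface marker of mature mouse neutrophils, had 6 and 330 UMIs, 2.11 (0.98 to 3.57), beside 0.81. Wfdc21 had 1.92 (1.49 to 2.39) beside 0.80, and the interferon-inducible transmembrane gene Ifitm6 1.7 (1.26 to 2.17) beside 1.88. Of 23 neutrophil identity genes 7 were higher and 0 lower in the group, and 6 and 0 in other gated neutrophils. Over all genes read 20.9% and 22.5% were higher, and counts near those shares are not read as a result about the list. S100a8, used by the gate, stood at 17580 and 38523 CPM.

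Of immediate early genes 7 of 21 were lower and 0 higher with the CKO label in the group, near the 27.5% of all genes that were lower there. In other gated neutrophils 9 of 22 were lower and 1 higher, beside 19.9% of all genes lower. Fos had log2 ratios of -0.94 (-1.16 to -0.71) and -1.42, and Dusp1, a phosphatase of MAP kinases, -1.0 (-1.13 to -0.87) and -0.87. Ccl3 had -0.99 (-1.12 to -0.86) and -1.03, and the angiogenic factor gene Vegfa -1.86 (-2.46 to -1.22) and -1.91.

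The named label ratios in the group rested partly on single cells and low counts. Lypd8, Reg3b, Reg3g, Dmbt1 and Gzmb were among the highest with the CKO label, and the mast cell genes Mcpt1 (-3.22) and Cpa3 (-2.28) among the lowest. All 72 and 16 WT-labelled UMIs of these mast cell genes were in a single cell each. Ifng, at -2.35, became 1.11 without its top cell in each library. In the library labelled WT that cell held nearly all Ifng UMIs of the group, so neither value is read as a direction. Apart from these, Tceal9 had 1 and 235 UMIs, 4.21 (1.72 to 9.52), and Atxn10 3 and 226, 2.57 (1.0 to 4.86). Msra, a methionine sulfoxide reductase gene, had 0 and 216 UMIs, at least 5.66-fold higher, beside 20 UMIs in WT-labelled other gated neutrophils. Also named for low ratios were Rgs1 (-2.75), Ramp3 (-2.71), Eif4e (-2.62), Tpst2 (-2.49) and Plk2 (-2.42). Rgs1, a regulator of G protein signalling gene, had 32 of its 47 WT-labelled UMIs in 1 cell and Ramp3 15 of 18, while the top cell held 6 of 27 for Eif4e, 3 of 26 for Tpst2 and 8 of 37 for Plk2.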

How the data were processed

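Immune cells of the inflamed colon were profiled with the 10x Genomics 3′ assay in 2 libraries. The deposited matrices hold UMI counts per gene and barcode, made with Cell Ranger 6.0.1 per the file headers. Per the submitters' processing notes the build was mm10 and the tools included Seurat 3.2.3 and Cell Ranger 5.0.0, another version than in the headers. The libraries held 18627050 (WT label) and 57740083 (CKO label) UMIs.

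Barcodes under 200 genes (11 and 36) or over 20% mitochondrial UMIs (36 and 120) were left out. Counts were summed over cells and scaled to CPM, and genes with 20 or more UMIs over the 2 sums were read. Intervals are exact (Poisson for levels, Clopper-Pearson for shares, conditional binomial for ratios). A count of 0 was set to a floor of 3 UMIs per sum for a bound. The ratio code was tested on simulated counts. Doublets were kept: Scrublet marked 1 and 213 cells (0.0342% and 1.91%), and in the group 0 and 6 cells. Gene lists held 521 symbols, of which 509 matched, and 1 gene is not reported here.

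The members and lists were chosen with earlier results of these data known. Genes named by ratio needed 50 UMIs and 100 CPM: the 15 highest and 12 lowest in the group with the CKO label, of the same sign with the WT label, and the 8 highest and 8 lowest between labels. Genes of the rule, unnamed models, ribosomal, mitochondrial, receptor segment and sex-linked genes were left out of that choice. From each list the 6 most abundant and the 4 of largest ratio could be named, and other genes were named after their values were seen. Python 3.11.15, numpy 2.4.6, scipy 1.17.1, pandas 2.3.3 and scanpy 1.11.5 were used.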

Additional observations from a re-analysis of the deposited data

Results flagged for a closer look

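In 3 genes the interferon group differed from other gated neutrophils in opposite directions in the 2 libraries, and the difference between the libraries was not tested. Gbp4, a guanylate-binding protein gene, had a log2 ratio of 0.6104 with the CKO label and -1.226 with the WT label, where it rested on 6 and 16 UMIs. Jchain, the joining chain of secreted antibodies, had -0.855 (419 and 541 UMIs) with the CKO label and 0.7643 (143 and 96 UMIs) with the WT label, and 201 of the 541 UMIs were in 1 cell. Tpst2, a tyrosylprotein sulfotransferase gene, had -0.7122 with the CKO label and 0.6419 with the WT label.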

How the results depend on the processing

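The share of gated neutrophils in the group moved with the threshold by construction: 52.4% and 65.6% (WT and CKO labels) at 3 or more UMIs, 25.4% and 35.0% at 10 or more, and 31.7% and 42.5% with Ifit1, Ifit3 and Rsad2 alone. It was 55.9% at the fixed depth with the CKO label. The median log2 ratio of interferon-stimulated genes over other gated neutrophils was 1.06 to 1.31 with the WT label (1.06 with Ifit1, Ifit3 and Rsad2 alone, 1.15 thinned, 1.31 at 0.2% of a cell's UMIs) under the settings that moved it. With the CKO label it was 1.08 at 3 UMIs, 1.01 at 10, 0.95 with Ifit1, Ifit3 and Rsad2 alone, 0.96 without cells marked by Scrublet, 1.08 at 0.2%, 0.97 thinned and 0.99 without cells with markers of another type, a setting added after the data were seen. Between labels it was 0.085 at 10 UMIs and 0.040 with Ifit1, Ifit3 and Rsad2 alone. At 0.2% the genes lower in the group with the CKO label numbered 1107 against 633, and the cause was not tested. Reading genes only at 100 UMIs, which tests fewer genes, gave 56 higher and 31 lower (WT label, against 317 and 252), 170 and 89 (CKO label, against 566 and 633) and 291 and 342 (between labels, against 874 and 1149).

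Signs of genes changed as follows, and the cause was not tested. At 3 UMIs Ss18l2 was 0.00491 and Rasa2 0.61 with the WT label. At 10 UMIs Lypd8 was -3.79 and between labels -0.30, Reg3b -2.68, Gzmb -0.072 and Ramp3 between labels 0.051. With Ifit1, Ifit3 and Rsad2 alone Cxcl9 was -2.19 with the WT label. At 0.2% Lypd8 was -3.79, Reg3b -0.076 (WT label) and -2.99, and Gzmb -4.87 and between labels -1.48. Without cells with markers of another type Lypd8 was -0.10, Reg3b -0.040, and Gzmb -1.62 and between labels -2.67. Gzmb is among those markers, so its values there follow from the setting. Ifng between labels was 1.11 without its top cells, which left almost no WT-labelled UMIs, so its sign is not read. These gene settings, except the last, were chosen after the data were seen. No paired analysis was possible because each label has 1 library. Depth limits the WT-labelled values most, since 52 cells held 140501 UMIs against 1786292.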
